A study of Homo sapiens with 60 samples.

Results

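HepG2 cells exposed to a Cnidium extract at 500 µg/mL were set against HepG2 cells exposed to a Rehmannia extract at the same nominal dose, to see what separated 2 herbal preparations beyond the antioxidant genes under the transcription factor NRF2. Cnidium is used here for the 70% ethanol extract of Cnidii Rhizoma, and Rehmannia for that of Rehmanniae Radix Preparata. The members were chosen by their labels: the 3 high-dose libraries of each extract, all carrying 1 code prefix in the table, which are 6 of the 60 libraries used. Libraries of both extracts at 100 and 20 µg/mL (3 each) and 3 vehicle libraries, labelled as 0.1% DMSO, served as references. All groups shared the line, which derives from a human liver carcinoma, and an exposure of 24 h. The series text gives 2% DMSO for the vehicle and a reduced dose for extracts toxic below 500 µg/mL, whereas the labels of these 6 libraries give 500 µg/mL. Both extracts are mixtures with no stated composition, and a single cancer line stands in for liver. Nothing in the labels says whether replicates were separate cultures. P-values therefore measure only the spread between libraries within groups, which may be technical. That spread was estimated over all 60 libraries, so the p-values are not those of 3 against 3 libraries alone.

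In liver cells, SREBP transcription factors switch on the enzymes of cholesterol and fatty acid synthesis, while insulin signalling restrains FOXO1 and with it glucose output and IGFBP1. Metallothioneins are small metal-binding proteins whose genes are switched on by zinc through the factor MTF1. NRF2 drives detoxifying and glutathione-handling enzymes when reactive compounds modify its inhibitor KEAP1, and HSF1 drives chaperones when proteins misfold.

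The summed expected counts ran from 21995061 to 31347871 in the Cnidium libraries and from 21485882 to 26993190 in the Rehmannia libraries. Mitochondrially encoded genes took 16.363% ± 1.094 (SD, n = 3) of counts with Cnidium and 16.137% ± 1.456 (SD, n = 3) with Rehmannia. All 11 listed hepatocyte markers were detected, among them AFP, albumin and APOB. Their summed level was 52040 to 54100 CPM (counts scaled to library size) in the Cnidium libraries and 56810 to 59330 CPM in the Rehmannia libraries. Under 1 CPM in all 6 libraries were 6 of 7 fibroblast markers, 4 of 5 endothelial and 4 of 5 blood cell markers. The exceptions were PDGFRB, PECAM1 and CD68. The summed fibroblast markers, mostly PDGFRB, gave 4.45 to 4.68 CPM with Cnidium and 6.52 to 7.47 CPM with Rehmannia, and the blood cell markers, mostly CD68, 73.3 to 84.0 and 55.4 to 70.7 CPM. PTPRC, CD3E and HBB were at 0. Of 4 cholangiocyte markers KRT7 and CFTR were under 1 CPM, whereas KRT19 and SOX9 were expressed. The other markers' part in the results below was not tested. In a principal component analysis of the 6 libraries the first component (28.3% of the variance) placed Cnidium at 10.36 to 30.64 and Rehmannia at −19.43 to −17.44. Replicate 1 of Rehmannia at 20 µg/mL stood apart from its group, with 11.04% mitochondrial counts against 16.73% and 18.88%. The counts that use this group are therefore also given without it. The vehicle columns carry another code prefix than the extract columns, and in a principal component analysis of 21 libraries they lay at −30.35 to −27.09 on the first component, against −13.02 to 5.68 for the extracts at 20 µg/mL. The titles label vehicle and extract libraries alike as BatchD. In comparisons with vehicle the treatment and the code set still cannot be told apart.

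At 500 µg/mL the extracts differed in a broad but mostly shallow way. Of 16692 genes tested with edgeR's quasi-likelihood test, 1679 (10.1%) passed an adjusted p of 0.05, 795 (4.76%) higher and 884 (5.3%) lower with Cnidium than with Rehmannia. The median log2 fold change of all tested genes was 0.005. These shares, 4.76% higher and 5.3% lower, are the background for every list count between the extracts at 500 µg/mL below. Throughout, the value after ± beside a log2 fold change is its standard error (SE), and a gene or list member is called higher or lower when it passed that threshold. Differences of at least 1.5-fold were found for 70 genes higher and 189 lower with Cnidium, and of at least 2-fold for 24 and 52. The libraries of the extracts did not overlap for 28.2% of all genes. Leaving out replicate 1 of Rehmannia at 500 µg/mL lowered the number of called genes to 1077.

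**Figure D1:**
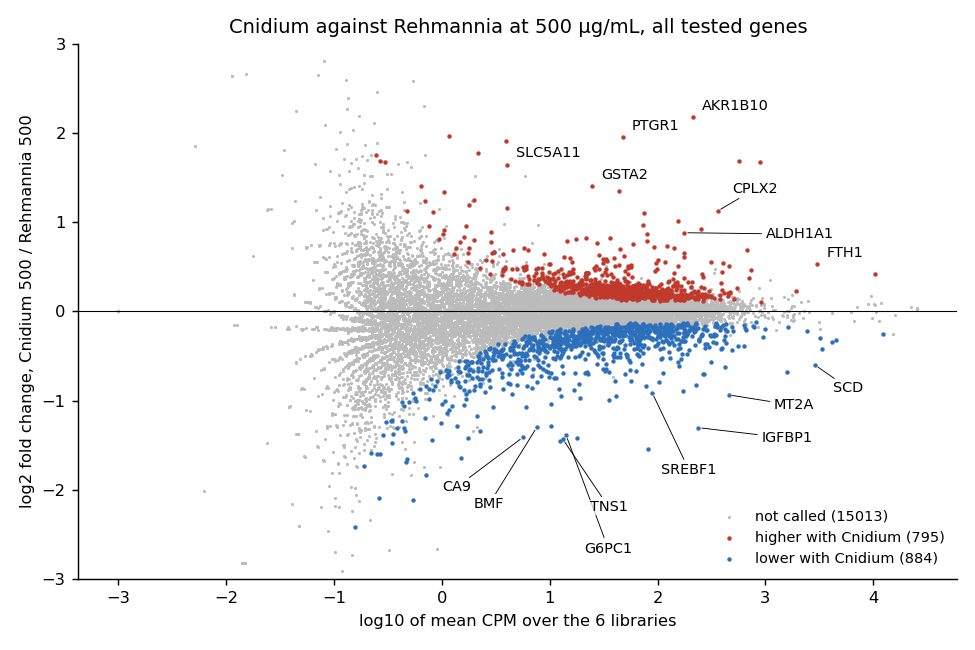
Each point is a tested gene, with the log10 of its mean CPM over the 6 libraries on the x axis and the log2 fold change of Cnidium over Rehmannia at 500 µg/mL on the y axis; the 795 genes called higher with Cnidium are red, the 884 called lower are blue. The axis ends at 3 in either direction and leaves out 59 genes, 2 of them called. NRF2 targets such as AKR1B10 lead the higher side, whereas G6PC1, BMF, IGFBP1 and SREBF1 lie on the lower side.

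Most of the genes that differed had also moved with dose within Cnidium, and few had within Rehmannia. Of the 795 genes that were higher with Cnidium, 681 rose from 20 to 500 µg/mL within Cnidium and 75 rose within Rehmannia (68 without replicate 1 of Rehmannia at 20 µg/mL). Of the 884 that were lower, 710 fell within Cnidium and 34 fell within Rehmannia (35 without that library). Against the direction of the difference, 6 of the higher genes fell within Rehmannia and 10 of the lower genes rose. Without that library these numbers were 3 and 9. Genes called in neither step numbered 108 and 167, or 111 and 168 without it. The step from 20 to 500 µg/mL changed 3065 genes with Cnidium (18.4% of all tested, 9.54% upward and 8.82% downward) and 235 with Rehmannia (1.41%, 0.785% upward and 0.623% downward), or 186 with Rehmannia without replicate 1 at 20 µg/mL. A test of the difference between the steps called 481 genes (2.88%), of which 198 (1.19%) moved further up and 283 (1.7%) further down with Cnidium. Without that library the numbers were 147 and 238. Of the 481, 466 were also called between the extracts at 500 µg/mL in the same direction. These comparisons share the high-dose libraries, so the shared calls are not separate evidence.

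**Figure D2:**
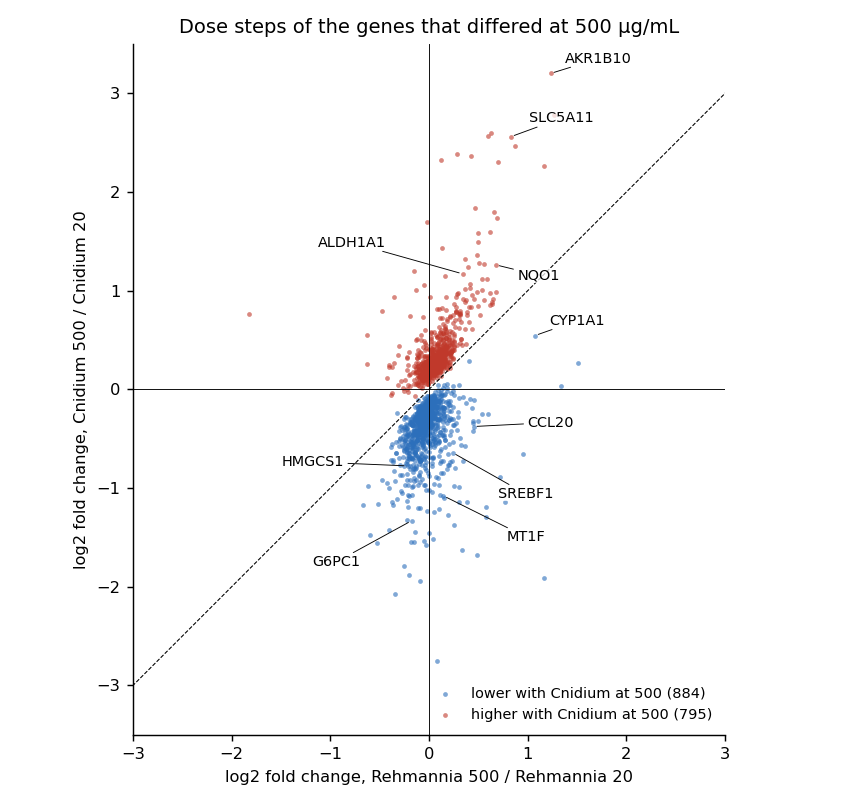
Genes called between the extracts at 500 µg/mL, with their log2 fold change from 20 to 500 µg/mL within Rehmannia on the x axis and within Cnidium on the y axis; the dashed line marks equal steps and 1 gene lies outside the axes. The red points (795, higher with Cnidium at 500 µg/mL) and blue points (884, lower) spread mainly along the Cnidium axis.

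Many genes differed between each extract and vehicle, which has its own code prefix: 30.9% with Cnidium (15.8% higher, 15.1% lower) and 20.0% with Rehmannia (10.5% higher, 9.58% lower).

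At the lower doses the extracts were hard to tell apart. At 100 µg/mL 15 genes (0.0899%) were called, 10 higher (0.0599%) and 5 lower (0.03%) with Cnidium, and all 15 were called in the same direction at 500 µg/mL. Those with the largest differences were AKR1B10, AKR1C2 and GSTA1 on the higher side and SV2A, BMF and KCNJ10 on the lower side. AKR1B10, an aldo-keto reductase, had a log2 fold change of 0.77 ± 0.07 (adjusted p = 6.9e-10), and BMF, which encodes a pro-apoptotic BH3-only protein, of −0.41 ± 0.08 (adjusted p = 0.0096). The lipid genes ACSS2 (−0.23) and FADS2 (−0.22) were already lower with Cnidium at that dose, with adjusted p of 0.02 and 0.031. Leaving out 1 of the libraries at 100 µg/mL left 3 to 11 calls, the fewest without replicate 3 of Cnidium, and 0 to 3 of them were on the lower side. The calls of AKR1B10 and AKR1C2 were kept in each of these fits. Those of GSTA1, BMF, SV2A and KCNJ10 were lost without 1 or more of the libraries, replicate 3 of Cnidium in each case, with highest adjusted p of 0.079 for GSTA1, 0.27 for SV2A and 0.34 for KCNJ10. At 20 µg/mL edgeR called 0 genes and DESeq2 called 1, while 837 genes had an unadjusted p under 0.05, about the number that threshold gives when nothing differs. Fitting all genes with a count gave 108 calls, all among the genes that pass the filter.

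Cholesterol synthesis was the most uniform list on the lower side. Of 23 listed genes 22 passed the filter on low counts, and 21 of them were lower with Cnidium and 0 higher (median log2 fold change −0.313), against 5.3% called lower among all genes. They span the pathway from HMGCS1, which makes HMG-CoA, through the squalene-forming FDFT1 and the cyclase LSS to DHCR7. PMVK, the phosphomevalonate kinase, was not called (−0.07 ± 0.12). INSIG1, an SREBP target, was close to 0 in all libraries and did not pass the filter, and whether this reflects how its reads were assigned was not tested. HMGCS1 (chromosome 5, 43289395 to 43313512, GRCh38) measured 312, 338 and 344 CPM with Cnidium, 511, 520.4 and 502 CPM with Rehmannia and 618, 593 and 603 CPM with vehicle. Every Cnidium library lay below every Rehmannia library, and both extracts lay below vehicle. The difference between extracts was 1.54-fold (log2 fold change −0.62 ± 0.05, adjusted p = 2.3e-13). LSS and FDPS, which makes farnesyl pyrophosphate, were lower with Cnidium by similar steps (−0.48 ± 0.06 and −0.43 ± 0.05). From 20 to 500 µg/mL 21 of the 22 fell within Cnidium (median −0.425) and 3 fell within Rehmannia (median −0.097), the latter 2 without replicate 1 of Rehmannia at 20 µg/mL. 

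Because these genes were lower together, 2 of their promoters are shown, from the RefSeq promoter table (GRCh38.p14), with the letters CCAAT on either strand (ATTGG on the other) in capitals; the factor NF-Y, which binds such boxes, is known to act beside SREBP. Of the 23 listed genes 18 were found in the table and 16 held the box within 250 bases before a listed start, against 37.0% of the 27305 genes in the table. HMGCS1 has 2 listed starts, and the start was ranked first by its number of boxes. Its window reaches into the span of the gene given above. The matches are a description of the letters and not of binding.
HMGCS1, chr5:43313413-43313582, minus strand: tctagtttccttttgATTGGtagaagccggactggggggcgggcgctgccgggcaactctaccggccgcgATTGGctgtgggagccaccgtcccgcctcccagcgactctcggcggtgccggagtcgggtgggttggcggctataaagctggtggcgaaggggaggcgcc
FDPS, chr1:155308676-155308865, plus strand: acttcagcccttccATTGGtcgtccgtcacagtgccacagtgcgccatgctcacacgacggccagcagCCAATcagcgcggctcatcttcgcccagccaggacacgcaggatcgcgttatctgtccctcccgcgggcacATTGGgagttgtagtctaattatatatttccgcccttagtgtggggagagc

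Fatty acid and triglyceride synthesis followed the same direction. Of 18 tested members (of 20 listed) 13 were lower with Cnidium and 1 was higher (median −0.346). SREBF1 (chromosome 17, 17810399 to 17837002) encodes SREBP-1, the main activator of fatty acid synthesis, and measured 59.4, 61.9 and 64.4 CPM with Cnidium and 124, 111 and 115 CPM with Rehmannia. The vehicle libraries, at 97.4, 100.7 and 94.8 CPM, lay between the extracts, and no library of one group overlapped another. The difference between the extracts was 1.89-fold (log2 fold change −0.92 ± 0.06, adjusted p = 3.5e-16). Within Cnidium the gene fell from 20 to 500 µg/mL (−0.64 ± 0.06, adjusted p = 1.1e-11), and within Rehmannia it rose (0.24 ± 0.06, adjusted p = 0.016). The rise within Rehmannia was 0.27 (adjusted p = 0.021) without replicate 1 at 20 µg/mL. It was no longer called without replicate 1 at 500 µg/mL (0.19, adjusted p = 0.15), or without replicate 2 or 3 at 20 µg/mL (adjusted p = 0.058 and 0.095). SCD, the desaturase that makes oleate, was among the most abundant members, at 2261, 2298 and 2312 CPM with Cnidium and 3406, 3507 and 3518 CPM with Rehmannia. Those groups were far apart beside their spread (log2 fold change −0.60 ± 0.04, adjusted p = 8.1e-16). FADS2, a polyunsaturated fatty acid desaturase, and ACSS2, which makes acetyl-CoA from acetate, were lower, with log2 fold changes of −0.71 ± 0.04 and −0.69 ± 0.05. DGAT1, which completes triglycerides, was the exception, higher with Cnidium by 0.29 ± 0.07 (adjusted p = 0.0018).

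Neighbouring lipid lists were less uniform. Of 15 LXR and sterol export genes 5 were lower with Cnidium (3 without replicate 1 of Cnidium), among them the cholesterol exporter ABCA1 (−0.32 ± 0.06) and MYLIP, which marks the LDL receptor for degradation (−0.71 ± 0.13). Of 23 genes of fatty acid oxidation and PPARA targets 8 were lower and 2 higher. FABP1, the liver fatty acid carrier, was lower (206 against 336 CPM on average, log2 fold change −0.70 ± 0.13, adjusted p = 9.1e-05), and so was the lipid droplet gene PLIN2, at −0.39 ± 0.08. The oxidation enzyme ACADVL was higher, with a log2 fold change of 0.27 ± 0.05. Of 19 apolipoprotein and lipoprotein assembly genes 5 were lower, or 2 without replicate 1 of Cnidium. LCAT, which esterifies plasma cholesterol, was one of them (−0.40 ± 0.08, adjusted p = 0.00028).

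**Figure D3:**
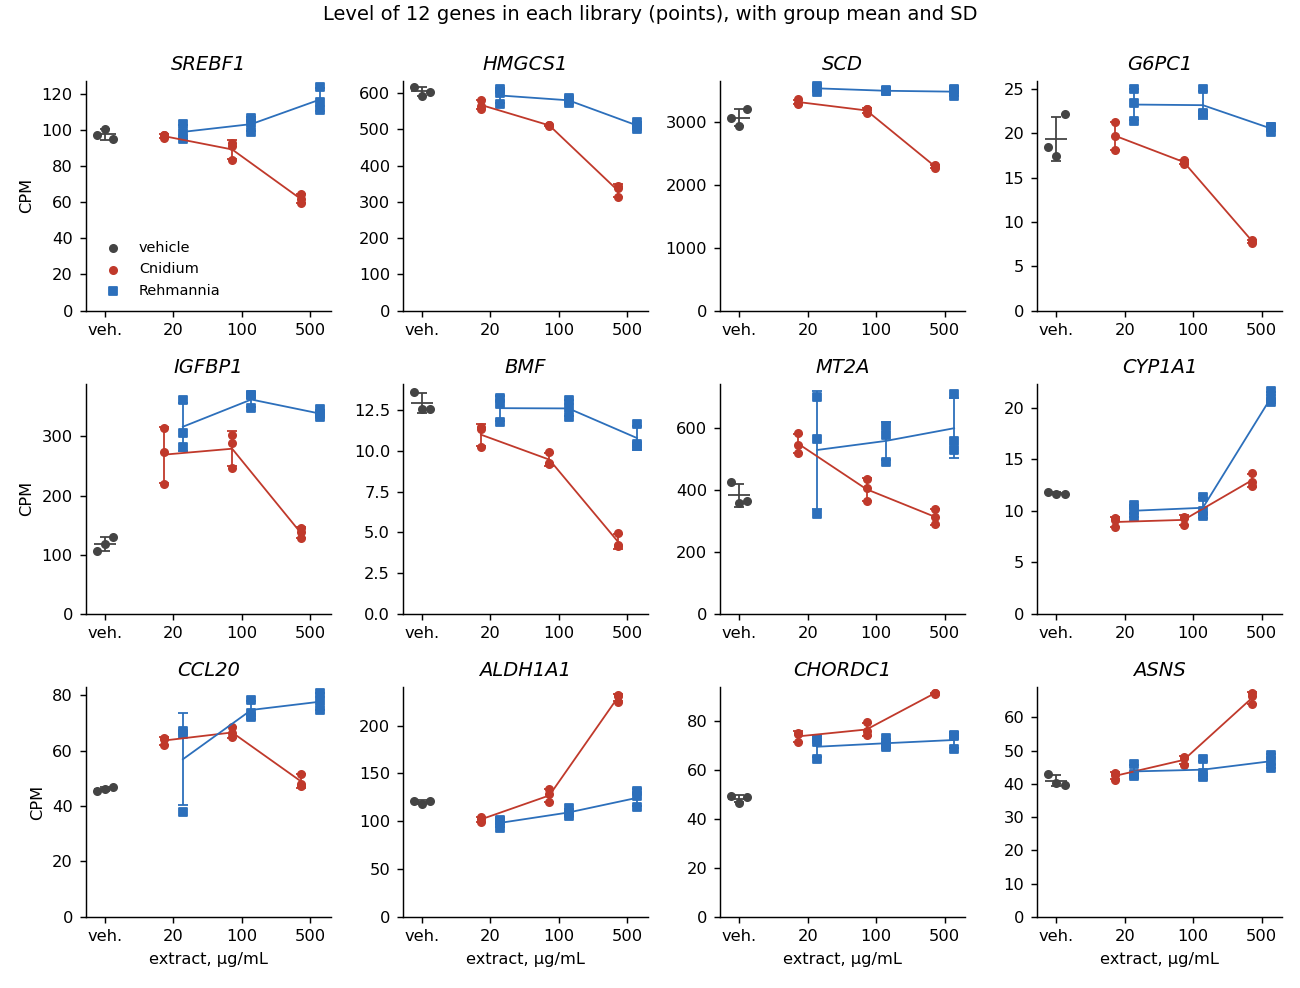
CPM of 12 genes in each library (points) with group mean and SD (lines and bars, n = 3), for vehicle and for 20, 100 and 500 µg/mL of Cnidium (red circles) and Rehmannia (blue squares); each y axis starts at 0. At 500 µg/mL the libraries of the extracts do not overlap in any panel, and the Cnidium line leaves the Rehmannia line mainly between 100 and 500 µg/mL.

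Genes of glucose output and of the fasting and insulin response held some of the deepest differences. G6PC1 (chromosome 17, 42900797 to 42913369) encodes the catalytic subunit of glucose-6-phosphatase, the last step of glucose release. It measured 7.90, 7.64 and 7.96 CPM with Cnidium, 20.7, 20.7 and 20.2 CPM with Rehmannia and 18.4, 17.4 and 22.2 CPM with vehicle. The Cnidium libraries lay apart from all others, at 2.62-fold below Rehmannia (log2 fold change −1.39 ± 0.12, adjusted p = 7.9e-12). Against vehicle the log2 fold change was −1.30 ± 0.12 with Cnidium (adjusted p = 1.4e-11) and 0.09 ± 0.11 with Rehmannia (adjusted p = 0.62). PCK1, the first committed enzyme of gluconeogenesis, was lower with Cnidium by −0.72 ± 0.12 (adjusted p = 1e-05). Of the 11 tested genes of glucose output 3 were lower and 0 higher. FBP1 (−0.13 ± 0.38) and PPARGC1A (−0.11 ± 0.09) were not called.

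Of 16 tested FOXO and insulin targets 7 were lower with Cnidium and 1 was higher. BMF measured 4.96, 4.14 and 4.199 CPM with Cnidium and 11.6, 10.4 and 10.3 CPM with Rehmannia, without overlap, and its difference was the firmest of the list (log2 fold change −1.30 ± 0.09, adjusted p = 7.2e-15). DEPP1, a FOXO target tied to autophagy, was lower, with a log2 fold change of −1.42 ± 0.16. KLHL24, a substrate adaptor of a ubiquitin ligase, and TXNIP, which restrains glucose uptake and thioredoxin, were lower, with log2 fold changes of −0.82 ± 0.11 and −0.49 ± 0.06. The receptor INSR (−0.04), FOXO1 (−0.06) and IRS1 (0.01) were not called.

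IGFBP1 (chromosome 7, 45888357 to 45893668) encodes a secreted carrier of insulin-like growth factors. Its libraries gave 139, 127 and 145 CPM with Cnidium, 346, 333 and 338 CPM with Rehmannia and 106, 118 and 130.4 CPM with vehicle. Rehmannia lay well above vehicle, and the Cnidium libraries overlapped the vehicle libraries. Between extracts the difference was 2.47-fold (log2 fold change −1.30 ± 0.18, adjusted p = 4.5e-07). Against vehicle it was 1.52 ± 0.18 with Rehmannia (adjusted p = 3.1e-08) and 0.21 ± 0.17 with Cnidium (adjusted p = 0.39). At 20 µg/mL Cnidium stood at 269 ± 47.5 CPM (SD, n = 3), so that IGFBP1 fell within Cnidium with dose (−0.97 ± 0.17, adjusted p = 4.4e-05).

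Several other genes, picked out after their values were seen, shared that arrangement, with vehicle and high-dose Cnidium low and the remaining extract groups higher on average. Since vehicle has another code prefix, its part in this arrangement cannot be told apart from that of treatment. CA9, a carbonic anhydrase induced in hypoxia, measured 3.44, 3.03 and 2.86 CPM with Cnidium, 7.996, 8.18 and 8.47 CPM with Rehmannia and 2.02, 2.42 and 3.03 CPM with vehicle. The difference between extracts was 2.66-fold (log2 fold change −1.41 ± 0.20, adjusted p = 1e-06). TUBB1, a platelet-type beta tubulin, averaged 6.03 CPM with Cnidium, 14.6 CPM with Rehmannia and 4.35 CPM with vehicle. The actin-linked focal adhesion gene TNS1 averaged 7.12, 19.2 and 9.13 CPM. Both were lower with Cnidium than with Rehmannia (−1.29 ± 0.30 and −1.43 ± 0.28). BNIP3L, a mitophagy receptor, averaged 42.8, 67.5 and 41.0 CPM in the same order and differed by −0.66 ± 0.11 between extracts. The hypoxia list as a whole was less even: 5 of 21 were lower with Cnidium and 0 higher (median −0.219). Against vehicle 14 of the 21 were higher with Cnidium (median 0.446) and 18 with Rehmannia (median 0.629). Among all genes 15.8% and 10.5% were higher in those comparisons. Most of the list thus did not sit at vehicle level with Cnidium as CA9 and BNIP3L did. The count of 5 called lower between the extracts fell to 2 without replicate 3 of Cnidium or replicate 2 of Rehmannia. It fell to 3 without replicate 1 of Rehmannia and rose to 10 when only the 6 libraries were fitted. Of the classical members VEGFA (−0.02 ± 0.06) and ADM (−0.04 ± 0.12) were not called. Of 21 glycolysis genes 4 were lower, or 7 with the 6 libraries alone, led by the aldolase ALDOC (−0.65 ± 0.09) and the glucose transporter SLC2A3 (−0.52 ± 0.10).

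Metallothioneins had the lowest median of the 42 gene lists. Of 11 tested members of the metallothionein and zinc list (12 listed) 7 were lower with Cnidium and 1 was higher (median −0.684). MT2A (chromosome 16, 56608199 to 56609497) measured 289, 339.9 and 312 CPM with Cnidium, 712, 559 and 531 CPM with Rehmannia and 427, 358 and 365 CPM with vehicle. The extracts did not overlap, and within Rehmannia replicate 1 lay above the other 2. The difference was 1.91-fold (log2 fold change −0.94 ± 0.16, adjusted p = 5e-05). MT1F and MT1E were lower, with log2 fold changes of −0.99 ± 0.14 and −0.83 ± 0.14, with the caution that reads of these near-identical genes can be divided between copies. SLC30A1, a zinc exporter and an MTF1 target outside that family, was lower too, at 63.0, 72.7 and 74.2 CPM with Cnidium and 90.7, 96.6 and 92.9 CPM with Rehmannia (log2 fold change −0.41 ± 0.05, adjusted p = 2.7e-07). SLC39A10, a zinc importer, was higher, with a log2 fold change of 0.34 ± 0.09, a call lost without replicate 3 of Rehmannia. MTF1 itself was not called (0.01 ± 0.06). From 20 to 500 µg/mL 8 of the 11 fell within Cnidium and 0 within Rehmannia, where the median step was 0.145, or −0.06 without replicate 1 at 20 µg/mL.

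Promoters of MT2A, MT1X (−0.68 ± 0.12 between extracts) and SLC30A1 are printed since the 3 genes were lower together, with the metal response element cores TGCACNC and TGCGCNC, searched on both strands, in capitals. Of the 12 listed genes 7 were found in the RefSeq table (GRCh38.p14) and 4 held a core within 250 bases before a listed start, against 28.5% of all genes in it. No match outside that window was looked for. The printed MT2A stretch lies wholly within the span of the gene given above. The matches describe letters and not binding.
MT2A, chr16:56608404-56608583, plus strand: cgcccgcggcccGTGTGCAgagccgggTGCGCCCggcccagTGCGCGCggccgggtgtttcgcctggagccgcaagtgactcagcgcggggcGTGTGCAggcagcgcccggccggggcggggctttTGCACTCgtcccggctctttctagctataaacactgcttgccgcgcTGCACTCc
MT1X, chr16:56682310-56682469, plus strand: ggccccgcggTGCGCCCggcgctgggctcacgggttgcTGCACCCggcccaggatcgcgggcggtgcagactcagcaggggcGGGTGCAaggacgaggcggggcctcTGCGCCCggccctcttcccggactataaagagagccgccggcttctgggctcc
SLC30A1, chr1:211579162-211579221, minus strand: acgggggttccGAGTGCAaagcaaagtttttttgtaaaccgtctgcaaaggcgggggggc

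Secreted liver proteins were lower with Cnidium for a minority of each list. Of 23 acute phase and plasma protein genes 6 were lower and 1 higher. TTR, the thyroid hormone and retinol carrier, measured 123, 125 and 129 CPM with Cnidium and 195, 185 and 195 CPM with Rehmannia, without overlap (log2 fold change −0.61 ± 0.09, adjusted p = 8.5e-07). The protease inhibitor SERPINA3 and the copper-carrying CP were lower, with log2 fold changes of −0.54 ± 0.07 and −0.56 ± 0.10. The haemoglobin scavenger HP was the member that was higher (0.26 ± 0.07), a call lost without replicate 1 of Rehmannia. Of 24 complement genes 9 were lower, led by the lectin MBL2 (−0.65 ± 0.09) and including C3 (−0.22 ± 0.05). Their number fell to 5 without replicate 3 of Rehmannia and to 2 when all 33438 genes with a count were tested. Of 19 coagulation genes 5 were lower and 1 higher. Among 22 hepatocyte transcription factors 4 were lower and 2 higher, or 2 and 1 without replicate 1 of Rehmannia, and FOXA2 differed by −0.32 ± 0.07.

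Signalling targets pointed mostly the same way. Of 14 tested NF-kappaB targets and cytokines (20 listed) 6 were lower with Cnidium and 0 higher (median −0.363). CCL20, a chemokine, measured 48.0, 51.7 and 47.2 CPM with Cnidium, 77.8, 80.6 and 74.5 CPM with Rehmannia and 45.5, 46.1 and 46.7 CPM with vehicle. Rehmannia stood above both other groups, and Cnidium lay slightly above vehicle (log2 fold change −0.66 ± 0.10, adjusted p = 3.3e-06 between extracts). From 20 to 500 µg/mL CCL20 fell within Cnidium (−0.38 ± 0.10) and rose within Rehmannia (0.45 ± 0.10, adjusted p = 0.0068). The rise within Rehmannia rested on replicate 1 at 20 µg/mL, which was low (37.6 CPM against 65.9 and 67.0). Without it the value was 0.22 (adjusted p = 0.089), and without replicate 2 at 500 µg/mL 0.42 (adjusted p = 0.051). It also missed the threshold when only the libraries of the code prefix were fitted (0.45, adjusted p = 0.095). With the replicate block added to that fit the rise was 0.46 (adjusted p = 0.083). TNFAIP3, a brake on NF-kappaB, was lower, with a log2 fold change of −0.46 ± 0.05, and so was the adhesion molecule ICAM1, at −0.29 ± 0.05.

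Of 18 YAP and TGF-beta targets 8 were lower and 1 higher. ANKRD1 and CCN2, both standard YAP readouts, were lower, with log2 fold changes of −0.86 ± 0.11 and −0.53 ± 0.07. Of 21 actin and SRF genes 7 were lower, or 4 when all genes with a count were tested, among them TAGLN (−0.61 ± 0.11), and FLNA, an actin crosslinker, was higher (0.24 ± 0.05). Of 14 Wnt targets 8 were lower and 0 higher (median −0.192). Glutamine synthetase, GLUL, had the smallest p among them (369 against 461 CPM, log2 fold change −0.32 ± 0.05, adjusted p = 3.2e-06). Their number fell to 5 without replicate 2 of Cnidium or replicate 1 or 3 of Rehmannia. Of 23 p53 targets 5 were lower, or 3 without replicate 3 of Cnidium, and TP53INP1, which links p53 to autophagy, differed most firmly (−0.69 ± 0.07). Immediate early genes were mostly not called (15 of 20), FOS (0.01) and EGR1 (0.04) included, with 4 lower and 1 higher. NR4A1 was lower (−0.62 ± 0.10) and MYC was higher (0.28 ± 0.05). Of 18 clock genes 6 were lower, or 3 without replicate 2 of Cnidium or replicate 1 of Rehmannia, and BHLHE40, a clock repressor, had the smallest p among them (−0.59 ± 0.07).

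On the higher side with Cnidium the NRF2 list came first: 28 of 29 tested members were higher and 0 lower (median 0.618), and the remaining one, SLC6A9, was not called (−0.08 ± 0.08). Within Rehmannia 21 of the 29 rose from 20 to 500 µg/mL (19 without replicate 1 at 20 µg/mL), against 28 within Cnidium, and 24 rose further within Cnidium in the test of the difference between the steps. AKR1B10 measured 346, 332 and 358 CPM with Cnidium and 69.8, 78.1 and 80.7 CPM with Rehmannia, 4.54-fold apart (log2 fold change 2.18 ± 0.07, adjusted p = 3.5e-27). PTGR1, which reduces reactive prostaglandins and aldehydes, and AKR1C2, a close copy of other AKR1C genes, were higher, with log2 fold changes of 1.95 ± 0.06 and 1.69 ± 0.07.

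Outside that list the largest higher values included genes of transport and detoxification. The list holds only 30 genes, and whether genes outside it also respond to NRF2 was not tested. SLC5A11 (chromosome 16, 24845841 to 24911628), a sodium-coupled inositol transporter, measured 6.01, 5.42 and 6.94 CPM with Cnidium, 1.64, 2.44 and 1.82 CPM with Rehmannia and 1.24, 1.44 and 1.76 CPM with vehicle. The Rehmannia libraries at 2.44 and 1.82 CPM lay above the vehicle range and that at 1.64 CPM within it. The difference between extracts was 3.13-fold (log2 fold change 1.65 ± 0.19, adjusted p = 1.3e-08). NMRAL2P, a transcribed pseudogene, was higher, with a log2 fold change of 1.91 ± 0.18. The glutathione transferases GSTA1 and GSTA2 were higher, with log2 fold changes of 1.35 ± 0.08 and 1.41 ± 0.09, and these paralogs may exchange reads. CPLX2, a complexin of vesicle fusion, averaged 494 ± 29.03 CPM (SD, n = 3) with Cnidium and 226 ± 12.2 CPM with Rehmannia. ALDH1A1, a retinal dehydrogenase, measured 232, 231 and 225 CPM with Cnidium, 115, 127 and 132 CPM with Rehmannia and 121, 118 and 121 CPM with vehicle. Rehmannia overlapped vehicle and Cnidium stood 1.84-fold above Rehmannia (log2 fold change 0.88 ± 0.06, adjusted p = 6.7e-16). ALDH1L1, a folate enzyme, CYP4F11, a fatty acid hydroxylase, and TSKU, a secreted liver protein, were higher, with log2 fold changes of 0.83 ± 0.07, 0.82 ± 0.07 and 0.79 ± 0.06. In the ZNG1 family, whose copies are nearly identical, ZNG1C was higher (0.77 ± 0.17) and ZNG1F lower (−1.46 ± 0.34), and how reads were divided between them is not known.

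Chaperones formed a smaller group on the same side. Of 20 cytosolic heat shock genes 9 were higher with Cnidium and 0 lower (median 0.173), or 5 without replicate 1 of Cnidium. CHORDC1, a co-chaperone of HSP90, measured 91.3, 91.1 and 91.4 CPM with Cnidium, 68.5, 73.7 and 74.2 CPM with Rehmannia and 49.2, 46.4 and 49.0 CPM with vehicle. Both extracts lay above vehicle, and Cnidium lay above Rehmannia (log2 fold change 0.34 ± 0.06, adjusted p = 0.00011). HSPA8, the constitutive HSP70, and FKBP4 and AHSA1, both partners of HSP90, were higher, with log2 fold changes of 0.23 ± 0.05, 0.24 ± 0.04 and 0.28 ± 0.05. DNAJB4, an HSP40 outside the list, was higher, with a log2 fold change of 0.78 ± 0.08. The inducible HSPA1A and HSPA1B, which are near-identical, were called too (0.34 and 0.43), while DNAJB1 (0.07 ± 0.09) and HSP90AA1 (0.23 ± 0.08) were not. Of 20 endoplasmic reticulum chaperones 2 were higher and 1 lower, against 4.76% and 5.3% of all genes.

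Windows before the starts of CHORDC1 and HSPA8 are shown because both genes were higher with Cnidium and hold heat shock elements, searched on both strands as GAA, TTC and GAA units each separated by 2 free bases, overlapping copies included, and set in capitals. Of 18 listed chaperone genes found in the RefSeq table (GRCh38.p14) 6 held the element within 250 bases before a start, against 0.6% of all genes in it. The list was drawn up as heat shock genes, so this share does not bear on the difference between the extracts. The matches describe letters and not binding, and whether they go with the called genes was not tested.
CHORDC1, chr11:90223050-90223129, minus strand: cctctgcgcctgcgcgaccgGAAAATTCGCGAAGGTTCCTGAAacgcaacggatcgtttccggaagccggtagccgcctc
HSPA8, chr11:123062137-123062216, minus strand: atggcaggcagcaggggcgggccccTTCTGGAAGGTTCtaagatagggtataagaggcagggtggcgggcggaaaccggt

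Of 29 proteasome genes 10 were higher and 0 lower (median 0.141). PSMD11, a subunit of the regulatory lid, measured 156, 141 and 138 CPM with Cnidium and 119, 126 and 124 CPM with Rehmannia, close but without overlap (log2 fold change 0.23 ± 0.04, adjusted p = 8.2e-05). The differences were small and their count moved with single libraries. It was 2 without replicate 1 of Rehmannia, 3 without replicate 2 of Cnidium, 4 without replicate 3 of Rehmannia and 5 when all genes with a count were tested. Of 20 genes of serine, one-carbon and methionine metabolism 6 were higher and 1 lower, or 3 higher without replicate 1 or 3 of Rehmannia. MAT1A, which makes S-adenosylmethionine in hepatocytes, was higher, with a log2 fold change of 0.41 ± 0.05, and so was the methyltransferase BHMT2, at 0.82 ± 0.07. ATF4 targets were mixed, with 3 of 28 higher and 2 lower, or 2 to 4 and 1 to 4 over the alternatives. The higher members included SLC7A11, shared with the NRF2 list, and PSAT1, a call lost without any 1 of the 6 libraries. TRIB3 was lower, a call lost without replicate 1 or 2 of Cnidium or replicate 2 or 3 of Rehmannia. ASNS, asparagine synthetase, measured 66.3, 67.4 and 63.9 CPM with Cnidium and 47.0, 48.8 and 44.6 CPM with Rehmannia, without overlap (log2 fold change 0.49 ± 0.06, adjusted p = 6.5e-09), whereas the amino acid transporter SLC38A2 was lower (−0.39 ± 0.06). Of 29 autophagy and lysosome genes 4 were higher and 5 lower, the latter 3 without replicate 2 of Cnidium or replicate 3 of Rehmannia. The lysosomal galactosidase GLA (0.56 ± 0.07) and the regulator TFE3 (0.42 ± 0.05) were on the higher side and the sialidase NEU1 (−0.27 ± 0.04) on the lower side.

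Xenobiotic and bile acid genes did not move as 1 block. CYP1A1 (chromosome 15, 74719542 to 74725610), the classical AhR target, measured 12.4, 13.7 and 12.8 CPM with Cnidium, 20.9, 21.7 and 20.6 CPM with Rehmannia and 11.8, 11.6 and 11.7 CPM with vehicle. Rehmannia stood above both other groups, and Cnidium lay above all vehicle libraries by a small margin. CYP1A1 was thus 1.62-fold lower with Cnidium than with Rehmannia (log2 fold change −0.69 ± 0.11, adjusted p = 1.2e-05). Its rise from 20 to 500 µg/mL was 1.03 within Rehmannia without replicate 1 at 20 µg/mL (adjusted p = 1.9e-06). With all libraries it was 1.07 ± 0.12 within Rehmannia (adjusted p = 2.1e-08) and 0.55 ± 0.12 within Cnidium (adjusted p = 0.00071). The difference between those rises did not pass (−0.53 ± 0.17, adjusted p = 0.078). NQO1, shared by the AhR and NRF2 lists, went the other way between extracts (0.69 ± 0.06). Of 8 tested AhR targets 1 was higher and 2 lower. Of 14 tested PXR and CAR targets 3 were higher and 2 lower. CYP3A7 and CYP3A5, cytochromes of drug metabolism, were lower, with log2 fold changes of −0.74 ± 0.09 and −0.48 ± 0.10, while UGT1A1, which conjugates bilirubin, was higher (0.39 ± 0.08). UGT1A genes share exons, so reads can be divided between them. Of 15 bile acid genes 4 were higher and 3 lower, with 2 higher without replicate 1 of Rehmannia. SLC51A, a subunit of the basolateral bile acid exporter, was higher by a log2 fold change of 0.59 ± 0.11. NR0B2, the FXR-induced repressor SHP, was lower (−0.36 ± 0.07).

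Some of the genes with the largest differences on the lower side belonged to no list. ACSL3P1 is a pseudogene that lies within the span of the transferrin gene TF and may take reads from its parent gene, and it was lower with Cnidium, with a log2 fold change of −1.54 ± 0.14. SCNN1A, a subunit of the epithelial sodium channel, measured 7.71, 6.67 and 5.97 CPM with Cnidium, 15.1, 12.9 and 13.4 CPM with Rehmannia and 15.4, 14.0 and 15.2 CPM with vehicle, without overlap between the extracts (log2 fold change −1.04 ± 0.10, adjusted p = 2e-11). Of 16 tested iron and BMP genes 2 were higher and 2 lower, and 12 were not called. FTH1, the ferritin heavy chain that stores iron and an NRF2 target, was higher, with a log2 fold change of 0.53 ± 0.07, and ID2, a target of BMP signalling, was lower, with a log2 fold change of −0.29 ± 0.07. The copper-carrying CP described above was the other lower member. Of 16 ERK feedback genes 3 were lower and 1 higher, or 5 and 0 with the 6 libraries alone, and the phosphatase DUSP6 was among the lower (−0.34 ± 0.05). Of 24 interferon-stimulated genes tested 3 were lower, or 1 without replicate 3 of Cnidium. Of 21 matrix and adhesion genes 1 was lower, which is near the 5.3% of all genes called lower.

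Of 48 cytosolic ribosomal protein genes, 37 nuclear and 13 mitochondrially encoded oxidative phosphorylation genes and 24 mitosis genes, edgeR called 0, with medians of 0.036, 0.043, 0.072 and −0.080. Over the alternatives 0 to 4 mitosis genes were lower, and 0 to 4 mitochondrially encoded genes were higher and 0 to 1 lower. Ribosomal protein and nuclear oxidative phosphorylation genes had 0 to 1 calls in either direction. Of 28 DNA replication genes 4 were higher and 1 lower, against 4.76% and 5.3% of all genes. Higher calls numbered 1 without replicate 1 of Rehmannia or with no filter, and 2 without replicate 2 or 3 of Cnidium, and CDC6, a licensing factor, differed by 0.21 ± 0.04. In bulk RNA a change in the mix or number of cells and a change in RNA per cell cannot be told apart.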

How the data were processed

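RNA of HepG2 cells (integrity number above 7) went into directional libraries, which were read as pairs of 100 bp on an MGI machine, per the labels' protocols. The authors deposited 1 table of expected counts per Ensembl gene for the study's libraries. The submitters' processing notes name RSEM 1.3.3, STAR 2.7.3a, Trim Galore 0.6.5, FastQC 0.11.9 and GRCh38; the annotation release is not given in the sources used here. Of 270 columns 60 were used and 210 were not, since these belong to no sample described here. Positions are those of GENCODE 29, and symbols were matched for 57055 of 60675 identifiers. Other identifiers remained unnamed.

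Expected counts were rounded, filtered with filterByExpr over 25 groups (16692 genes kept) and scaled by TMM (edgeR 4.0.16, R 4.3.3). All 60 libraries entered a single quasi-likelihood fit (35 residual degrees of freedom, common coefficient of biological variation 0.06), so the groups share 1 estimate of spread. Each two-sided contrast had its own Benjamini-Hochberg adjustment over all tested genes, with 0.05 as the threshold. CPM are TMM-scaled. Fold changes compare extracts as Cnidium over Rehmannia unless a step or vehicle is named. DESeq2 1.42.0, other size factors, other filters, fewer libraries, a replicate block and leaving out each library were run as alternatives. Replicates at 500 µg/mL differed by more than counting error (chi-square over its degrees of freedom 5.57 to 12.37), and no columns were identical.

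The extract pair, the 42 lists and the tests were chosen with earlier results of these data known, so lists are described by counts and medians without a test. Named genes were the 12 largest differences in each direction outside the NRF2 list and the 3 largest within it, among called genes whose libraries did not overlap and whose higher group averaged 5 CPM or more. To these were added up to 4 called members with the smallest p in a list's main direction and up to 2 in the other for lists with at least 3 called, the 5 largest differences of the steps and the 3 largest at lower doses in each direction. Members not called are named as such, and DHCR7, MT1X, HSPA1A, HSPA1B, ACSS2 and FADS2 at 100 µg/mL were added after their values were seen. Promoter windows came from the RefSeq table (GRCh38.p14). All lists were written from textbook knowledge, so the shares of list genes with a match are not evidence on the extracts.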

Additional observations from a re-analysis of the deposited data

Results flagged for a closer look

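A set of 10 genes stood out because the step from 20 to 500 µg/mL differed between the extracts in a direct test of that difference (edgeR, adjusted p under 0.05). They are the 5 largest called differences in either direction among genes that meet the CPM minimum for named genes, each given as the log2 step within Cnidium minus that within Rehmannia. On the upper side they were the pseudogene NMRAL2P (2.201), the aldo-keto reductase AKR1B10 (1.969), PTGR1 (1.946), the inositol transporter SLC5A11 (1.731) and AKR1C1 (1.608). On the lower side they were the pseudogene ACSL3P1 (−1.457), the FOXO target DEPP1 (−1.23), the metallothionein MT1F (−1.223), G6PC1 (−1.154) and BMF (−1.1). None of the 10 calls was lost under any alternative run, including those that left out replicate 1 of Rehmannia at 20 µg/mL. Within Cnidium DEPP1 moved by −0.98 ± 0.17 and within Rehmannia by 0.25 ± 0.15, and MT1F by −1.08 ± 0.14 and 0.14 ± 0.14. NMRAL2P and ACSL3P1 are pseudogenes and MT1F has near-identical copies, so how reads were assigned to them was not tested.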

How the results depend on the processing

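Apart from fits without 1 library, every alternative kept the number of calls at 500 µg/mL within 1.5 times of 1679. Leaving out 1 library lowered it further, to 1077 to 1399. The split of higher against lower calls was 795 to 884 as reported, 777 to 897 with DESeq2's size factors in edgeR, 677 to 805 with no filter and 719 to 924 with the 6 libraries alone. At 100 µg/mL, against 15 calls, there were 94 with no filter, 28 with DESeq2 and 3 to 11 without 1 library. At 20 µg/mL, against 0, there were 108 with no filter, 1 with DESeq2 and 0 to 5 without 1 library. The step within Rehmannia, 235 as reported, had 429 with no filter and 122 to 281 without 1 library. Its comparison with vehicle, 3346 as reported, had 2039 to 2835, and the difference of the steps, 481 as reported, had 350 to 562. The cause of these shifts was not tested.

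Replicate numbers showed little pairing: deviations of same-numbered libraries at 500 µg/mL correlated at 0.022, 0.008 and 0.064. Those of other-numbered libraries correlated at −0.05 to 0.027. Whether a weak pairing remains was not tested. With the replicate block the 6 libraries gave 845 higher and 1027 lower calls, and the libraries of the shared code prefix 806 and 996. Without the block the 6 libraries gave 719 and 924, and the libraries of that prefix 745 and 950.

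Of 183 gene results named, 128 kept direction and threshold under all alternatives. The others gave 177 values that missed the threshold and 0 that reversed, among 2773 values. Adjusted p could be far weaker than printed. Its highest value over the alternatives was 5.6e-07 for SREBF1 and 6.1e-06 for HMGCS1 between the extracts at 500 µg/mL. Counts per list moved by over 1.5 times in 126 of 1260 values. Genes under about 1 CPM rest on few reads, and 3 libraries a side limit small differences.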
